A study of Homo sapiens with 6 samples.

Results

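Heparan sulfate is a long sugar chain carried by core proteins at the cell surface and in the matrix. The glypicans are held to the membrane by a lipid anchor, the syndecans cross it, and perlecan (HSPG2) and agrin (AGRN) lie in basement membranes. In the Golgi a linker is built on the core protein, a polymerase extends the chain, and sulfotransferases with an epimerase pattern it, which sets the growth factors and morphogens it can bind. Outside the cell, endosulfatases and heparanase edit the chain, and lysosomal sulfatases and glycosidases break it down. In carcinoma cells these proteoglycans are known as co-receptors for fibroblast growth factors, Wnt proteins and chemokines.

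The genes described here are 40 named ones: 12 core proteins and 28 enzymes and sulfatases. They are listed by symbol and role, with no threshold on a measured difference, although earlier results of these data were known when the list was made. Each gene is represented by its brightest probe set over all 6 arrays. Of the 40, 39 were measured among 22412 genes. HS2ST1, encoding the 2-O-sulfotransferase, shares its probe set with a second gene and is not analysed here. The data were 6 single-colour transcriptome arrays of SKOV3, an established human ovarian carcinoma line, with 3 arrays from a stable pLKO-Vector line whose genotype is labelled normal and 3 from a stable shSND1-#2 line labelled SND1 knockdown. Culture medium was McCoy's 5A for both lines, and the labels state no treatment. The knockdown rests on 1 hairpin, the labels do not say whether either line is a single clone, and the title of the first knockdown array carries an additional number that the labels do not explain. The comparison asked which transcripts differ when SND1 is depleted, a protein with staphylococcal nuclease-like and tudor domains known from transcription and RNA decay.

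The deposited values are log2 expression levels, and array medians lay between 4.13 and 4.19. Each difference below is the knockdown mean minus the control mean on this log2 scale, with its standard error, and a call means an adjusted p under 0.05 in limma's moderated test over all genes. Levels of different genes are not compared, since each probe set has its own brightness. SND1 itself stood at 8.83, 8.60 and 8.80 on the control arrays and at 5.88, 5.70 and 5.99 on the knockdown arrays, at least 5.51-fold lower (difference -2.89 ± 0.09, adjusted p = 1.30e-06). The 23 background control probe sets had mean levels of up to 6.28, with the next at 5.85 and 5.29 and the other 20 at or below 4.39. A group mean at or below 6.28 is described as within the background range. A fold change is then a lower bound against 6.28 where the dimmer group lies in that range, and is not given where both groups do. Of 10 markers of the ovarian carcinoma line 9 were measured, and 8 of these, all but WT1, lay above the background range in at least 1 group. Of the 9, 3 rose and 5 fell, and the mean level over the list went from between 9.89 and 9.93 on control arrays to between 9.64 and 9.72 on knockdown arrays. EPCAM rose 7.59-fold, MSLN 1.66-fold and KRT7 1.17-fold. KRT8 fell 2.61-fold, FOLR1 3.5-fold, KRT18 1.44-fold and MUC16 at least 1.19-fold, WT1 fell by 0.16 within the background range, and PAX8 was not called (12.30 in controls, 12.37 after knockdown). The part of these marker changes in the results below was not tested. All measured markers of fibroblasts (7), endothelial cells (6) and leukocytes (6) lay in the background range throughout, although LUM rose by 1.85 and COL1A1, COL1A2 and KDR fell by 0.44, 0.18 and 0.47. The labels name no batch.

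Of the 39 measured members, 15 fell and 3 rose after SND1 knockdown, together 46.2%, whereas 32% of all genes tested were called. All genes split evenly, with 15.9% higher and 16.1% lower, and the members split 7.69% higher and 38.5% lower. The groups did not overlap for 24 of the 39 members, beside 9774 of 22412 genes (43.6%). Above the background range in a group, they did not overlap for 18 of 22 members and 6344 of 9119 genes. The median difference over the members was -0.13, beside 0.00 over all genes. Calls are more frequent among bright genes: of the 9119 genes above the background range in a group, 57.1% were called, 30.4% higher and 26.7% lower. Of the 22 members above it 14 (63.6%) were called, 2 of them (9.09%) higher and 12 (54.5%) lower. The share of members called thus lies near that of other genes above the range, and the split between directions differs from theirs. Some members that fell passed this filter only through the control group, so the split is a description and was not tested.

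A fitted decrease of at least 2-fold was found for 8 members (20.5%), SDC2, ARSJ, XYLT1, HS3ST3A1, GPC4, NDST1, GPC6 and SULF2, and for 2.44% of all genes. With levels below 6.28 raised to it, 7 of these 8 (all but GPC6) still differed by at least 2-fold, against 1.57% of all genes. Genes within the background range in both groups cannot differ once raised, which lowers the share of all genes. Among the 22 members above the range in a group, 7 (31.8%) fell by 2-fold, both as fitted and with levels raised. Of the 9119 genes above it, 4.87% did as fitted and 3.85% with levels raised. This filter keeps a gene that is bright in either group. SDC2, ARSJ, XYLT1, HS3ST3A1 and GPC4 passed it through the control arrays alone, where they are high. Their share is therefore partly set by the filter, which was applied to all genes alike. No member rose by 2-fold, beside 1.83% of all genes as fitted and 1.33% with levels raised. These shares describe the list and were not tested. The list was made with earlier results of these data known, so a high share cannot serve as evidence about the pathway. It also counts ARSJ, whose action on heparan sulfate was not tested. In cultures such as these, fewer cells expressing a gene and less of its RNA per cell cannot be told apart.

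**Figure D1:**
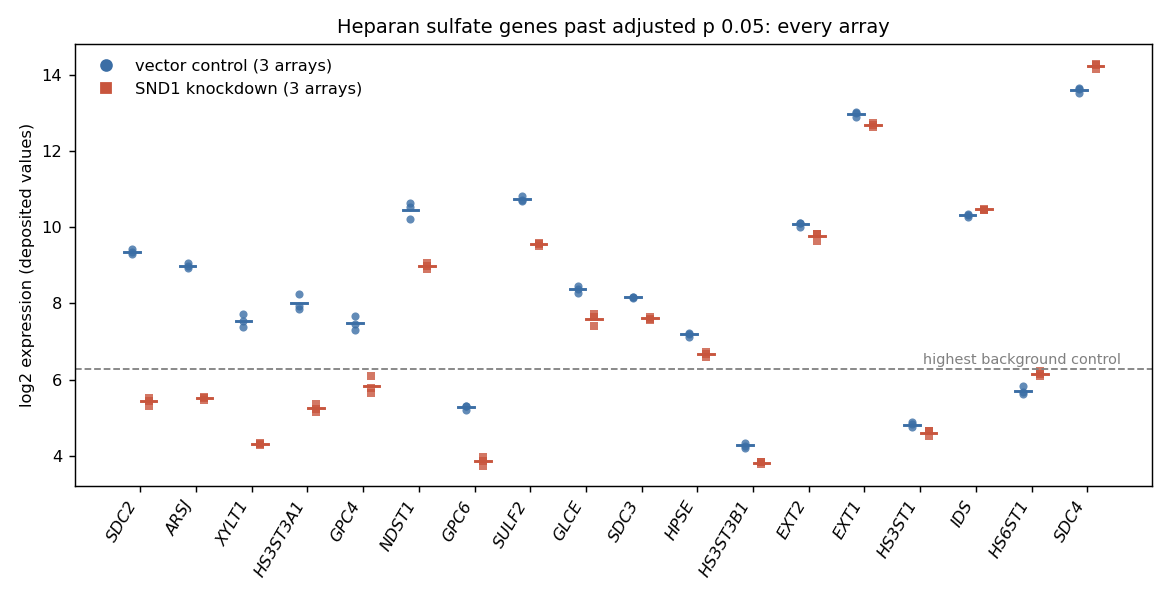
Log2 expression on every array for the 18 members past adjusted p 0.05, ordered by fitted difference from lowest to highest; circles are vector control arrays, squares SND1 knockdown arrays, bars group means (n = 3), and the dashed line is the highest background control at 6.28. The groups do not overlap for any of the 18 genes, and 5 of them (SDC2, ARSJ, XYLT1, HS3ST3A1 and GPC4) drop from above the dashed line to below it.

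To show the sequences in front of these genes, the RefSeq promoter windows (GRCh38.p14, 250 bases before to 50 after an annotated transcript start, read along the gene's strand) were searched for the E-box CAGGTG and its reverse complement CACCTG. This motif is bound by SNAI2 and ZEB1, repressors of epithelial genes, and SNAI2 fell in these cells by 3.11 on the log2 scale (adjusted p = 9.65e-06). The table held 44 windows of 33 measured members. AGRN, EXT1, EXTL3, GPC3, SDC2 and SULF1 have no window in it. E-box here means CAGGTG or CACCTG only, and other forms of E-box were not searched. It was present in 7 of the 44 windows (15.9%) and in 20.6% of all 35116 windows. The EXT2 windows among the 7 overlap and hold the same site. By gene, counting any of its starts, 5 of 13 members that fell had one (EXT2, HPSE, NDST1, SDC3 and SULF2), 0 of 3 that rose, and 1 of 17 that were not called (SDC1), beside 24.1% of all 27305 genes. Genes have different numbers of annotated starts, and a match of letters is not evidence of binding. Whether the fall of SNAI2 has a part in the changes of these members was not tested. Windows are shown for the members of the table with the lowest fitted differences, ARSJ, XYLT1 and HS3ST3A1. These hold no CAGGTG or CACCTG, and their folds are lower bounds. Also shown are the members with a 2-fold decrease and this motif, NDST1 and, at 1 of its 4 starts, SULF2. The last is SDC4, the core protein gene that rose. Capitals mark CAGGTG or CACCTG, and other forms of E-box are not marked.
ARSJ, chr4:113979598-113979897, minus strand: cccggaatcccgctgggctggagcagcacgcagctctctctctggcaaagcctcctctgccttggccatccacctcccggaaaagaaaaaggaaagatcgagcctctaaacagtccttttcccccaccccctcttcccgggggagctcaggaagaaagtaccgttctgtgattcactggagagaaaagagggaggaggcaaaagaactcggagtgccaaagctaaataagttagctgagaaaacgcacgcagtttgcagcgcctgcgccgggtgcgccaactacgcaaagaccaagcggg
XYLT1, chr16:17470911-17471210, minus strand: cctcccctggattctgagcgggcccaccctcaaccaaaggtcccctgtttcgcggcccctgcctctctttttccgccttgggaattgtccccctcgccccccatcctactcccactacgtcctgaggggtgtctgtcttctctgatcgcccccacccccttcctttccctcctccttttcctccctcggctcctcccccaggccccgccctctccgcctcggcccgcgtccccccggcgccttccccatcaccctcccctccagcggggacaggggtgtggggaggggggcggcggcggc
HS3ST3A1, chr17:13601880-13602179, minus strand: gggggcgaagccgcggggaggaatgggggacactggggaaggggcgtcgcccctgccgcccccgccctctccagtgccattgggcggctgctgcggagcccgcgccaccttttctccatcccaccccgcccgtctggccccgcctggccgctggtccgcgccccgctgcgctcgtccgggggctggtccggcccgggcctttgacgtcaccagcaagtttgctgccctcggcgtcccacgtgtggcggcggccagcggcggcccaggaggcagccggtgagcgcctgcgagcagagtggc
NDST1, chr5:150497529-150497828, plus strand: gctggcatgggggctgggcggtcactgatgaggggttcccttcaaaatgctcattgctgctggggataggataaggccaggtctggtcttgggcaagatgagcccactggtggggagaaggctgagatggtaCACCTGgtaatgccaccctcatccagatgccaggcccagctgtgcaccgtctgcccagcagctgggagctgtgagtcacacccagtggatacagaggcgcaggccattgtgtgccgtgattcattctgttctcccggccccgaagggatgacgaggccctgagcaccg
SULF2, chr20:47764379-47764678, minus strand: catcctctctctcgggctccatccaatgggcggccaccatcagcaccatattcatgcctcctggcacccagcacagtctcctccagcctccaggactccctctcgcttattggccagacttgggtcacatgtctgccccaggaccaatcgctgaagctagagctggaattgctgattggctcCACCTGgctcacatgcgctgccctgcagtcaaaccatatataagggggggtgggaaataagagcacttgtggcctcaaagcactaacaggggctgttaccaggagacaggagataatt
SDC4, chr20:45348375-45348674, minus strand: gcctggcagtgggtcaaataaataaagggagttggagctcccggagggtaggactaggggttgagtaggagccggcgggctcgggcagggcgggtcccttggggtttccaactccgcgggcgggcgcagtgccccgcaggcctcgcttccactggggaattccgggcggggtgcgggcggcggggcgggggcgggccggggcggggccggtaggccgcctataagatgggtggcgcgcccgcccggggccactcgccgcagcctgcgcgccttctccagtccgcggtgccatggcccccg
Counted from the annotated start as position 0, the motif lies at -118 in NDST1 and at -68 in SULF2. The SULF2 start shown is the most downstream of its 4, and which start these cells use was not measured by the array.

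Among the glypicans 2 of 6 fell and none rose. GPC4, a glypican known as a co-receptor for fibroblast growth factor and Wnt signals, read 7.47, 7.30 and 7.66 on the control arrays and 5.78, 6.11 and 5.66 on the knockdown arrays. Every knockdown array lay more than 1 log2 unit below every control, a decrease of at least 2.29-fold (difference -1.63 ± 0.14, adjusted p = 0.000101). GPC6, a glypican known from skeletal growth, read 5.32, 5.21 and 5.31 in controls and 3.75, 3.88 and 3.98 after knockdown. The groups were far apart (difference -1.41 ± 0.07, adjusted p = 9.24e-06), but both lay within the background range, with the control mean above 20 of the 23 background controls and the knockdown mean above 16. The remaining glypicans GPC1, GPC2, GPC3 and GPC5 were also within that range, at control means from 3.20 (GPC5) to 6.10 (GPC1), and their differences ran from -0.13 to 0.07. For GPC1, a glypican found in many carcinomas, the 95% interval of the difference was -0.27 to 0.02 (adjusted p = 0.19), and its group values overlapped.

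The 4 syndecans, all above the background range in controls, showed changes in both directions. SDC2, the syndecan typical of mesenchymal cells, had the lowest fitted difference of any member. It read 9.43, 9.36 and 9.29 on control arrays and 5.32, 5.53 and 5.46, within the background range, on knockdown arrays, a decrease of at least 8.45-fold (difference -3.93 ± 0.07, adjusted p = 1.83e-07). SDC3, a syndecan best known from nerve and muscle, read 8.17, 8.16 and 8.16 in controls and 7.58, 7.60 and 7.65 after knockdown, a 1.47-fold decrease (-0.55 ± 0.04, adjusted p = 7.88e-05). SDC4, which sits in focal adhesions together with integrins, moved the other way. Its control arrays read 13.51, 13.62 and 13.64 and its knockdown arrays 14.14, 14.27 and 14.24, a 1.55-fold increase (0.63 ± 0.06, adjusted p = 0.00018). SDC1, the main syndecan of epithelia, read 9.06, 8.94 and 9.06 in controls and 9.08, 9.19 and 9.11 after knockdown. Its groups did not overlap, yet the difference of 0.11 was not called (95% interval -0.03 to 0.24, adjusted p = 0.217).

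The basement membrane proteoglycan genes were not called. HSPG2 read 10.40, 10.35 and 10.54 in controls and 10.42, 10.28 and 10.14 after knockdown, with overlapping groups (difference -0.15, 95% interval -0.35 to 0.05, adjusted p = 0.241). AGRN differed by 0.00 with a 95% interval of -0.17 to 0.17, so a change beyond about 0.17 in either direction lies outside it.

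**Figure D2:**
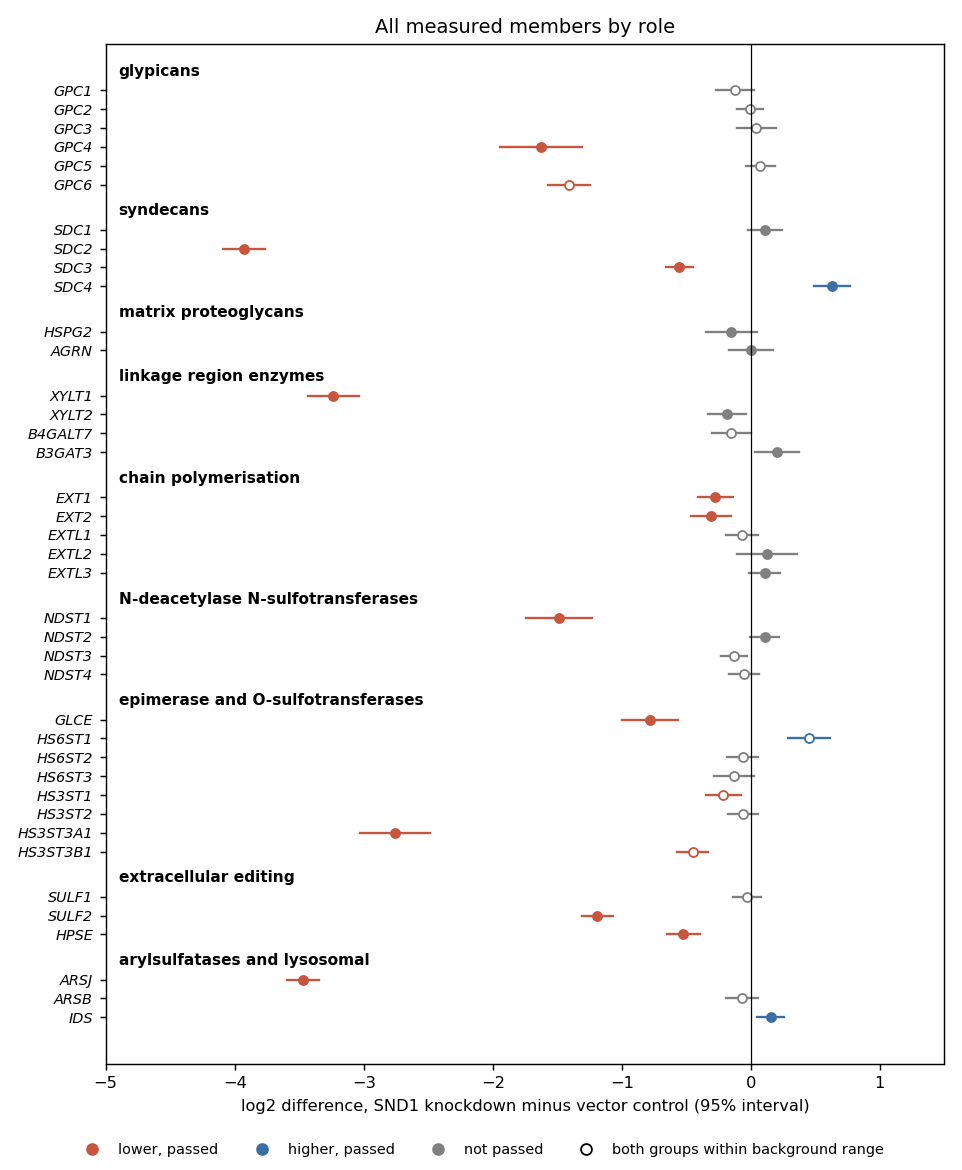
Log2 difference, knockdown minus control, with its 95% interval from the limma fit for the 39 measured members, grouped by role; red was called lower, blue higher and grey was not called, and open circles mark genes within the background range in both groups. Fitted differences below -2.5, which end within the background range, are spread over the roles, with SDC2 at -3.93, ARSJ at -3.47, XYLT1 at -3.24 and HS3ST3A1 at -2.76, and the increases stay below 1.

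Chain assembly starts with a xylose on a serine of the core protein, which either of 2 xylosyltransferases can place. XYLT1 read 7.38, 7.72 and 7.55 on the control arrays and 4.35, 4.31 and 4.29 on the knockdown arrays. Every knockdown value lay within the background range and about 3 log2 units under the controls, a decrease of at least 2.41-fold (difference -3.24 ± 0.08, adjusted p = 6.64e-07). XYLT2 read 7.87, 7.84 and 7.99 in controls and 7.69, 7.79 and 7.66 after knockdown. The groups did not overlap, and the difference of -0.19 fell short of a call (95% interval -0.33 to -0.04, adjusted p = 0.0584). B4GALT7 and B3GAT3, which add the galactose next to the xylose and the glucuronic acid that completes the linker, differed by -0.15 (adjusted p = 0.119) and 0.20 (adjusted p = 0.073) and were not called, though their groups did not overlap either.

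Of the 5 polymerisation genes 2 fell, and both encode the polymerase itself. EXT1 read 12.88, 12.99 and 13.02 in controls and 12.64, 12.74 and 12.68 after knockdown, a 1.21-fold decrease (-0.28 ± 0.06, adjusted p = 0.0084). Its partner EXT2 read 10.00, 10.10 and 10.12 in controls and 9.65, 9.83 and 9.82 after knockdown, a 1.24-fold decrease (-0.31 ± 0.07, adjusted p = 0.0097). These are small changes, each with a gap between the groups. EXTL3, which starts the heparan sulfate chain on the linker, and EXTL2, a glycosyltransferase that limits chain growth, differed by 0.11 and 0.13 with overlapping groups (adjusted p = 0.179 and 0.426). EXTL1 were within the background range on both sides and differed by -0.07.

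Sulfation begins with the N-deacetylase N-sulfotransferases, of which NDST1 fell. It read 10.22, 10.53 and 10.64 on control arrays and 9.06, 8.97 and 8.90 on knockdown arrays, a 2.8-fold decrease (-1.48 ± 0.11, adjusted p = 5.33e-05). NDST1 was the only member with a second probe set. That one lay within the background range, at a mean of 4.35 over the arrays, and gave -0.51 ± 0.16 (adjusted p = 0.103 over all probe sets). NDST2, the other broadly expressed form, read 6.53, 6.47 and 6.50 in controls and 6.62, 6.65 and 6.55 after knockdown, and its difference of 0.11 was not called (95% interval -0.01 to 0.22, adjusted p = 0.153). NDST3 and NDST4 were within the background range on both sides and differed by -0.13 (adjusted p = 0.0587) and -0.05 (adjusted p = 0.503).

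The epimerase gene GLCE, whose enzyme turns glucuronic into iduronic acid along the chain, read 8.38, 8.28 and 8.46 in controls and 7.41, 7.66 and 7.71 after knockdown. It fell 1.72-fold (-0.78 ± 0.09, adjusted p = 0.000521), and the groups were separated by more than the spread within either. Among the 3-O-sulfotransferases, HS3ST3A1 was the one above the background range in controls. This enzyme makes a rare modification known as the entry site of herpes simplex virus. It read 7.93, 7.84 and 8.26 on control arrays and 5.23, 5.15 and 5.37 on knockdown arrays, a decrease of at least 3.31-fold (-2.76 ± 0.12, adjusted p = 4.26e-06). HS3ST3B1, its neighbour on chromosome 17 with a nearly identical catalytic domain, fell by 0.45 (adjusted p = 0.000432) within the background range. Probes for this pair cannot be assumed to separate them fully. HS3ST1, which makes the antithrombin binding site of heparin, fell by 0.21 within the same range, from 4.89, 4.83 and 4.76 to 4.53, 4.65 and 4.65 (adjusted p = 0.0275). That call did not hold when the first or second control array or the first knockdown array was left out (adjusted p = 0.092, 0.0795 and 0.0669).

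HS6ST1, a 6-O-sulfotransferase, was among the 3 members that rose. It read 5.84, 5.67 and 5.63 on control arrays and 6.14, 6.11 and 6.24 on knockdown arrays, all within the background range but above at least 21 of the 23 background controls by group mean (difference 0.45 ± 0.07, adjusted p = 0.0022). HS6ST2, HS6ST3 and HS3ST2 lay at control means between 3.55 and 3.77, within the background range, and differed by -0.06, -0.13 and -0.06 without a call.

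The enzymes that act on finished chains outside the cell were lower where they were detected. SULF2, an endosulfatase that removes 6-O-sulfates, read 10.81, 10.70 and 10.72 in controls and 9.51, 9.59 and 9.55 after knockdown. It fell 2.28-fold (-1.19 ± 0.05, adjusted p = 4.44e-06), with little spread in either group. HPSE, the heparanase that cleaves the chain, read 7.13, 7.21 and 7.23 in controls and 6.67, 6.73 and 6.59 after knockdown, a 1.44-fold decrease (-0.52 ± 0.05, adjusted p = 0.000314). SULF1, the second endosulfatase, lay within the background range, at a control mean of 3.51, and differed by -0.03 (adjusted p = 0.717).

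ARSJ is listed as an arylsulfatase family member, and whether it acts on heparan sulfate was not tested. Its control arrays read 9.05, 8.99 and 8.92 and its knockdown arrays 5.56, 5.46 and 5.53, a decrease of at least 6.52-fold (-3.47 ± 0.05, adjusted p = 1.15e-07). The spread within each group was small beside that gap. ARSB, the lysosomal sulfatase of chondroitin and dermatan sulfate, lay within the background range and differed by -0.07 (adjusted p = 0.385). IDS, the lysosomal sulfatase that takes the 2-O-sulfate off iduronic acid, read 10.31, 10.27 and 10.34 in controls and 10.49, 10.46 and 10.44 after knockdown. This 1.11-fold increase (0.16 ± 0.04, adjusted p = 0.034) lost its call when any single array was left out (adjusted p from 0.0602 to 0.1149). A pseudogene copy of IDS lies close to it, so its probes cannot be assumed to report IDS alone.

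Over the 21 members without a call, differences ran from -0.19 to 0.20. Of these, 13 were within the background range on both sides, and for the other 8 the 95% intervals together reached from -0.35 to 0.37.

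A stable line can differ from its control over a chromosome stretch, so each member was set beside the 10 measured genes on either side of it. For the 18 called members the median difference of these 20 neighbours lay between -0.04 and 0.08. For SDC2 it was -0.01, for ARSJ 0.01, for XYLT1 0.06, for HS3ST3A1 -0.01, for GPC4 0.04, for NDST1 0.00 and for SULF2 -0.03. Counting only neighbours brighter on average than the overall median of the arrays, the medians for the called members ran from -0.12 (HPSE) to 0.23 (ARSJ). The highest median of all members was that around EXTL2, 0.44, where EXTL2 itself differed by 0.13. Positions came from GRCh38.p14 and were used only for the order of genes.

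**Figure D3:**
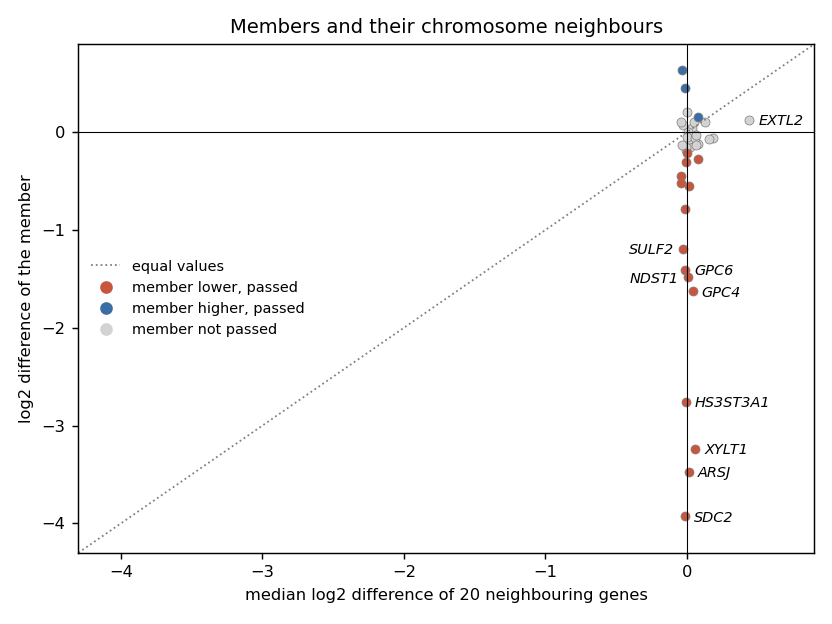
Log2 difference of each of the 39 members (vertical) against the median log2 difference of its 20 neighbouring genes (horizontal), both axes on the log2 scale over equal ranges; red members were called lower, blue higher and grey not called, and the dotted line marks equal values. The called members line up near 0 on the horizontal axis, between -0.04 and 0.08, while their own values reach down to -3.93.

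Other genes of the pathway were read from the same fit. Of 80 measured in 7 lists, 15 rose and 26 fell (51.2% called, median -0.04), beside 32% of all genes called. Of the 42 above the background range in a group, 28 were called, beside 57.1% of all genes above it. These shares, and the counts by list below, were not tested. Precursor supply and linker genes moved in both directions, 5 higher and 3 lower of 11 (median 0.06). PAPSS2, which makes the sulfate donor PAPS, fell 1.64-fold (-0.72), UGDH, the source of UDP-glucuronic acid, fell 1.53-fold (-0.61), PXYLP1, the phosphatase of the linker xylose, fell 1.36-fold (-0.44) and the nucleotide sugar transporter gene SLC35D2 rose 1.5-fold (0.59). A further list held HS3ST4, HS3ST5, HS3ST6, HPSE2 and NOTUM, all within the background range. None of these 5 was called by limma, and at an unadjusted p under 0.05 there were 0.

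Of 11 lysosomal breakdown genes, which do not all act on heparan sulfate, 3 rose and 2 fell (median 0.02). HEXA, a hexosaminidase subunit whose action on heparan sulfate was not tested, fell 3.07-fold (-1.62). The sulfamidase gene SGSH fell by 0.45 within the background range. NAGLU, which removes N-acetylglucosamine, rose 1.28-fold (0.36), and SUMF1, whose product activates sulfatases, rose by 0.44 within the background range. Of 6 further carriers that can bear heparan sulfate or act beside it, 3 fell and 1 rose (median -0.19). NRP1, a co-receptor for VEGF and semaphorins, fell 3.26-fold (-1.71), the hyaluronan receptor gene CD44 rose 1.23-fold (0.29), and SRGN and FGFR2 fell by 0.65 and 0.37 within the background range.

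Chondroitin and dermatan sulfate share the linker made by the xylosyltransferases. Of 15 measured enzymes for these chains 7 fell and 2 rose (median -0.21). CHST3, a chondroitin 6-O-sulfotransferase, fell 2.17-fold (-1.12), the epimerase gene DSEL at least 1.34-fold (-0.97) and the chondroitin synthase gene CHSY1 1.39-fold (-0.48), while DSE fell by 0.64 within the background range. Of the 8 core protein genes of these chains only VCAN, encoding versican, was called, a 1.38-fold decrease (-0.47). The other 7 lay within the background range, with NCAN, DCN and BGN at -0.13, 0.30 and -0.09.

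Among 24 growth factors and receptors that bind heparan sulfate, 10 fell and 4 rose (median -0.14). PTPRS, a receptor phosphatase whose ligands include heparan and chondroitin sulfate, fell 8.42-fold (-3.07). SLIT2, a secreted guidance protein, rose at least 1.37-fold (1.32), and ROBO1, its receptor, fell by 1.22 within the background range. WNT5A fell by 1.20 within the same range.

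**Figure D4:**
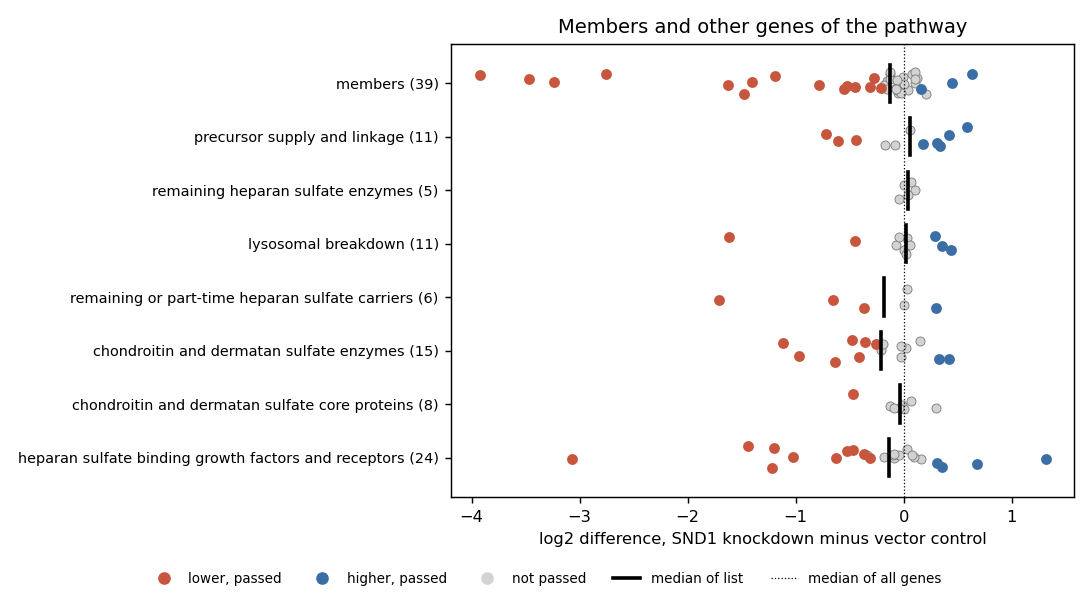
Log2 difference, knockdown minus control, for the 39 members and for 80 other genes in 7 lists, 1 point per gene, with numbers of measured genes in brackets; red was called lower, blue higher and grey not called, thick bars are list medians and the dotted line is the median of all genes. Points below -2.5 belong to 4 members and to PTPRS in the last list.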

How the data were processed

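RNA was extracted with TRIzol, labelled with biotin and hybridised to Affymetrix arrays, per the labels' protocols. The authors deposited 1 log2 expression level for each probe set and array, and the submitters' processing notes name RMA, with no version. Of these values 4457 exceed 16, the log2 limit of a 16-bit scanner, so the scale is not the scanner's and fold sizes depend on it. Raw scans were not used here.

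Of 70523 probe sets, 23781 carried 1 gene symbol, 1543 several and 45199 none in the platform annotation. Old symbols (306) were updated through the RefSeq gene table by Entrez identifier or unique synonym. A probe set with more than 1 symbol was left unnamed, except that of SND1, kept as the check of the target although it is also annotated to SND1-IT1. The brightest probe set of a gene over the 6 arrays was used.

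Differences came from limma 3.58.1 (R 4.3.3; functions lmFit and eBayes), 2-sided, without covariate or filter, with Benjamini-Hochberg adjustment over all 22412 genes at 0.05, and the steps were tested on simulated data. Each group had n = 3 arrays, which limits the precision, and nothing in the labels says that these were separate cultures, so p-values measure a spread that may be technical. Means are over arrays and ± is the standard error. The members and all lists were chosen with earlier results of these data known, as was the background rule. All members are accounted for, and called members with an absolute difference of at least 0.5 are given array by array. Some other members are also given by array, and the rest by difference, range or group mean. From each further list up to 4 genes with the smallest adjusted p are named. Alternatives left out each array in turn, blocked on replicate number, or changed the normalization, filter, probe set choice or variance model. A count of serine-glycine attachment sites in the core proteins, also planned, was not made here.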

Additional observations from a re-analysis of the deposited data

How the results depend on the processing

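Under 15 alternatives (each array left out, a replicate block, renewed quantile normalization, arrays centred on their medians, filters above the median of all values and above the background controls, the mean of a gene's probe sets, all probe sets tested, an intensity trend with a robust prior, and no variance moderation), 16 of the 18 called members kept their call and direction wherever they were tested. The exceptions were IDS, which lost its call in 10, and HS3ST1, which lost it in 6. Leaving out 1 array gave 14 to 16 members lower and 2 higher, 2957 to 3384 genes lower and 2909 to 3501 higher, and an SND1 difference of -2.96 to -2.81. Of the members without a call, XYLT2 was called lower under 4 alternatives (adjusted p from 0.0294 to 0.0462), B3GAT3 higher under both filters (adjusted p = 0.0484 and 0.0362) and NDST3 lower without variance moderation (adjusted p = 0.0157), and the cause was not tested. Averaging its probe sets moved NDST1 from -1.48 to -0.996.

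Replicate numbers shared by the groups showed no sign of pairing the arrays. Deviations of same-numbered arrays from their group means correlated at -0.02, -0.04 and -0.06 across genes, and those of differently numbered arrays at -0.03 to 0.07. Many genes lie within the background range, so such correlations cannot exclude shared culture or processing days. With a replicate block 14 members were lower and 2 higher, HS3ST1 and IDS losing their calls (adjusted p = 0.0775 and 0.1039), and 3139 genes were lower and 3093 higher. Genes within the background range have uncertain fold sizes.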
